A study of Rattus norvegicus with 18 samples.

Results

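The comparison described here set the dorsal hippocampus (dHC) of rats trained 6 d earlier against that of untrained rats, over every gene measured. Its members were chosen by their titles: 3 libraries of trained rats and 3 of naive rats, 6 of the 18 libraries of the series. Every animal was an adult rat of the outbred Long-Evans strain. The naive rats stayed in the home cage, and the trained rats learned inhibitory avoidance, a task in which a rat that received a foot shock in one compartment later avoids entering it. RNA of 5 rats was combined in each library, called a pool below, so that differences between single animals were averaged before sequencing. The groups therefore differ by everything that separates a training session from the home cage, and no group with shock or context alone was part of this comparison.

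The dorsal hippocampus is needed to form memories of places and events, and its neurons switch on activity-dependent genes soon after learning. With time such memories are thought to come to rely more on the neocortex. A measurement several days after training asks which transcripts still differ once that early response has passed. Gene IDs in the tables come without gene names, and 0 of the 32662 IDs were matched by the reference table used here. Gene groups, cell type markers and sequences are therefore not described, and the results are given for all genes, by level of expression, and for 5 genes by ID.

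Total gene counts ran from 7687831 to 8874826 per pool over these 6 pools, and 17823 to 18294 genes had at least 1 count. None of 6 measures of depth and read assignment differed between the groups beyond the spread of the pools (exact permutation p from 0.3 to 1, two-sided, where 0.1 is the smallest possible with 3 pools against 3). The labelled region was checked with 187 genes over 4-fold higher in dHC than in the prelimbic cortex (PL) at 1 h and 222 genes over 4-fold higher in PL, as chosen from the 1 h pools of both regions. The genes high in dHC summed to 9480 to 10320 CPM, the usual unit of counts relative to the size of the library, in naive and 9477 to 10094 CPM in 6 d dHC pools, against 1499 to 1710 CPM in the naive and 6 d PL pools. Genes high in PL summed to 2007 to 2063 CPM in naive dHC and to 1952 to 2121 CPM in dHC at 6 d, against 11717 to 12833 CPM in those PL pools. Both sums overlapped between naive and 6 d dHC pools, with the highest sum of the genes high in PL in 6 d pool 3. In tissue punches, fewer cells of a type and less RNA per cell cannot be told apart, and this holds for every difference below.

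No gene passed the test for a difference between 6 d and naive dHC. Of 14305 genes tested, 0 had an adjusted p under 0.05 (0% called, edgeR quasi-likelihood test), and the smallest adjusted p was 0.376. An unadjusted p under 0.05 was found for 807 genes (5.64%), 483 of them higher (3.38%) and 324 lower (2.26%) at 6 d. A share of 0.05 would reach this p without any difference, so 5.64% is near that share. The balance of directions varied. With a pool left out, 50.8% (without naive pool 1) to 63.6% (without naive pool 3) of such genes were higher. At 5 to 20 CPM 97 were higher and 99 lower, and over 100 CPM 109 and 46. DESeq2 and limma voom also called 0 genes, with 428 and 804 at an unadjusted p under 0.05. The count of calls was not 0 in every fit: edgeR called 3 genes with the replicate number as a block, 1 gene when low counts were not filtered out, and 31 when its legacy fit was used on the unfiltered genes. Among the 807 genes, the median log2 fold change was 0.25 for those higher and −0.28 for those lower, and 20 genes were beyond 2-fold, 9 higher and 11 lower. Their median level was 40.7 CPM for the higher and 20.5 CPM for the lower genes, against 24.5 CPM for all genes tested. In 681 genes all 3 pools at 6 d lay above all 3 naive pools (4.76%), and in 666 all lay below (4.66%), together 1347 genes (9.42%). Separation of the pools was about as frequent in both directions. Of all orders of 3 pools against 3, a share of 0.1 separates the groups, so 9.42% is no excess over random order.

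Over all genes the measured changes were small. The median log2 fold change was 0.00, and 50.1% of the genes were above 0, a balance that the TMM scaling of the libraries sets near 0 and that says nothing of a shift common to all genes. Between the 5th and the 95th percentile the changes ran from −0.27 to 0.29, and between the 1st and the 99th from −0.55 to 0.57. The range narrowed with the level of expression. In genes at 1 to 5 CPM the 5th and 95th percentiles were −0.53 and 0.53, at 20 to 100 CPM −0.15 and 0.17, and over 100 CPM −0.11 and 0.14. Genes found in one group alone had few counts. Genes with 0 counts in all naive pools reached at most 11 counts summed over the 6 d pools, and genes with 0 counts at 6 d at most 9 counts summed over the naive pools.

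**Figure D1:**
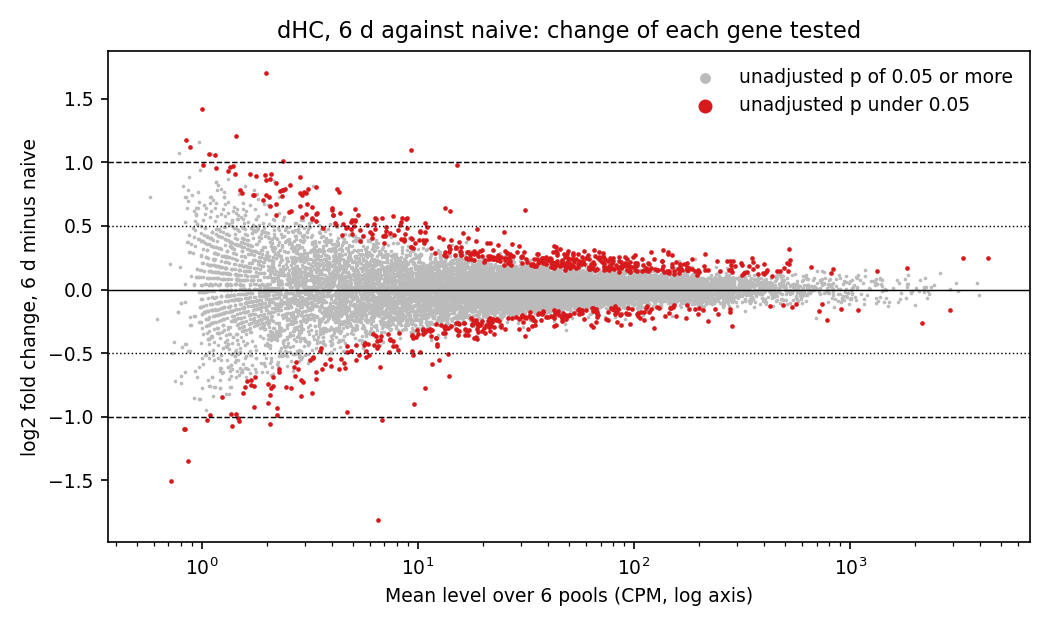
Log2 fold change of each of the 14305 genes (6 d minus naive, vertical) against its mean level over the 6 pools (CPM, log axis). Red points have an unadjusted p under 0.05, dashed lines mark a 2-fold change and dotted lines a log2 change of 0.5. The points lie closer to 0 as the level rises, and no gene passed after adjustment.

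The gene with the lowest p in the edgeR test above was ENSRNOG00000040287. It stood at 4.92, 8.46 and 4.54 CPM in naive pools 1 to 3 and at 12.8, 12.8 and 12.0 CPM in the 6 d pools. All 6 d pools were above all naive pools and close to each other, while naive pool 2 was nearer to them than the other naive pools were. The means were 5.97 ± 2.166 CPM and 12.6 ± 0.473 CPM (SD, n = 3), from 40 to 65 counts per naive and 96 to 112 per 6 d pool. The log2 fold change was 1.10 (SE 0.21, 95% interval 0.67 to 1.53), with an unadjusted p of 2.63e-05 and an edgeR adjusted p of 0.376. This was the one gene of all tested whose 95% interval lay above a log2 change of 0.5, and none lay below −0.5. Its call depended on the pools, the filter and the model. Without naive pool 2 the log2 fold change was 1.41 (edgeR adjusted p = 0.0181), without a filter on low counts the edgeR adjusted p was 0.0402, and with the replicate number as a block it was 0.0146. Over 21 alternatives the adjusted p ran from 4.53e-07 to 0.998 and the log2 fold change from 0.93 to 1.41. The lowest came from edgeR's legacy fit on the unfiltered genes. In that fit genes not named here had lower adjusted p, down to 1.30e-13 (edgeR). At 1 h it was at 11.0, 12.0 and 7.93 CPM, overlapping the naive pools. In the 6 PL pools (naive and 6 d) it was at 0.337 to 1.12 CPM, below every dHC pool.

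The second gene, ENSRNOG00000053122, had a smaller difference between close pools. It measured 101, 112 and 109.9 CPM in the naive pools and 129.05, 136.4 and 128.9 CPM at 6 d, so the groups did not overlap. At 1 h it was at 107, 109 and 106 CPM, among the naive values. The log2 fold change at 6 d was 0.29 (SE 0.06, 95% interval 0.17 to 0.42, unadjusted p = 0.000109, edgeR adjusted p = 0.782). The interval spans a ratio of 1.12 to 1.34.

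Among genes that were lower at 6 d with separate pools, ENSRNOG00000026691 had the lowest p. Naive pools held 16.0, 17.3 and 15.2 CPM, the 1 h pools 12.7, 12.8 and 13.7 CPM and the 6 d pools 11.1, 12.0 and 10.9 CPM. Naive values were highest and 6 d values lowest, with the 1 h pools between them and no overlap. At 6 d the log2 fold change was −0.51 (SE 0.12, 95% interval −0.76 to −0.26, unadjusted p = 0.000409, edgeR adjusted p = 0.820).

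ENSRNOG00000019358 showed a different pattern, in which the 6 d pools disagreed. The naive pools were almost equal at 9.05, 9.11 and 9.30 CPM. The 6 d pools held 8.21, 2.18 and 3.25 CPM, so that pool 1 was near the naive level and pools 2 and 3 were at the level of the 1 h pools (3.82, 2.68 and 2.31 CPM). The log2 fold change was −1.03 (SE 0.29, 95% interval −1.63 to −0.42, edgeR adjusted p = 0.820). Without 6 d pool 1 it was −1.77 (edgeR adjusted p = 0.00845), in a range of adjusted p from 0.000499 to 1.00 over 21 alternatives. Its SD of log2 CPM was 0.93 over the 6 d pools and 0.02 over the naive pools. The gene was named for its large SD at 6 d, so the 0.93 follows from that choice. The naive pools held 70 to 82 counts, and counting error alone gives a larger SD than 0.02. Genes at 5 to 20 CPM had a median SD of 0.15 in naive pools, so the 0.02 overstates how steady the naive level is. The interval takes a common spread for all groups and is therefore uncertain for this gene.

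**Figure D2:**
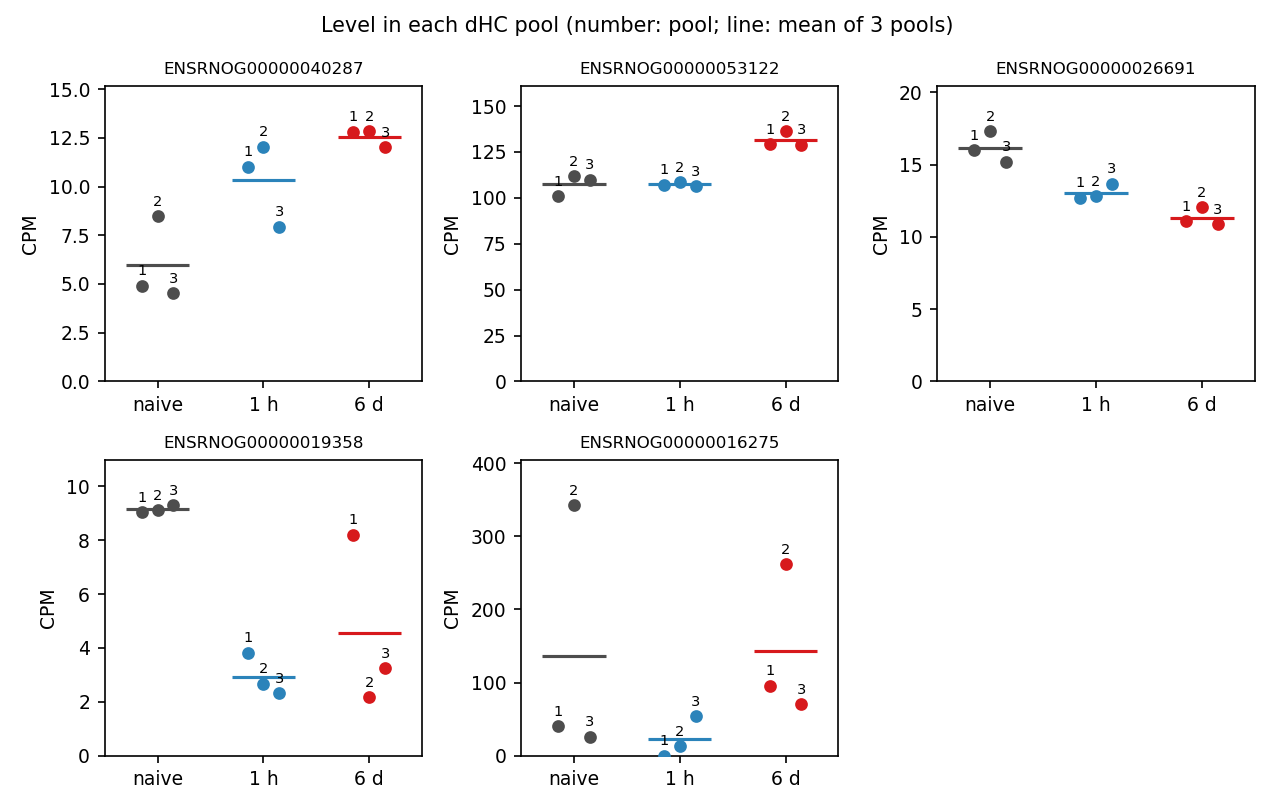
Level (CPM, from 0) of 5 genes in each dHC pool, with the pool number beside each point and a line at the mean of 3 pools. ENSRNOG00000040287, ENSRNOG00000053122 and ENSRNOG00000026691 have separate naive and 6 d pools, in ENSRNOG00000019358 pool 1 at 6 d stays near the naive level, and in ENSRNOG00000016275 the pools of every group are far apart.

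How large a lasting change the data still allow was read from the 95% intervals. The interval lay within a 2-fold change in both directions (log2 of 1) for 13340 genes (93.3%), within a log2 change of 0.5 for 10326 genes (72.2%) and within 0.25 for 4773 genes (33.4%). The median half-width was 0.23, a factor of 1.17. An equivalence test asks the reverse of the usual question and passes when a change as large as the margin is rejected in both directions. After adjustment over all genes, 10708 genes (74.9%) passed for a margin of 0.5 and 13694 (95.7%) for a margin of 1. Of the 807 genes with an unadjusted p under 0.05, 475 passed the equivalence test at 0.5 and 692 at 1. These are smaller shares than the 74.9% and 95.7% of all genes. A low p picks changes away from none, from the same estimates that the equivalence test uses. The smaller shares therefore follow from the choice and are no result about these genes. Changes of the genes that did not pass were not bounded to that size.

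The bounds narrowed with the level of expression. For genes under 1 CPM the median half-width was 1.04, and 2.80% of 107 intervals lay within 1. At 1 to 5 CPM the half-width was 0.63, with 68.7% of 2684 genes within 1 and 2.87% within 0.5. From 5 to 20 CPM it was 0.32, with 67.8% of 3663 genes within 0.5. At 20 to 100 CPM 98.6% of 5512 genes lay within 0.5 and 48.9% within 0.25. Over 100 CPM the half-width was 0.13, and 86.6% of 2339 genes lay within 0.25. Of the 965 genes with an interval reaching a 2-fold change, 518 reached it upward and 462 downward, and 22 were at 5 CPM or more. A 2-fold difference was therefore still inside the interval for many genes under 5 CPM, whereas above 20 CPM the intervals of nearly all genes lay within 0.5.

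**Figure D3:**
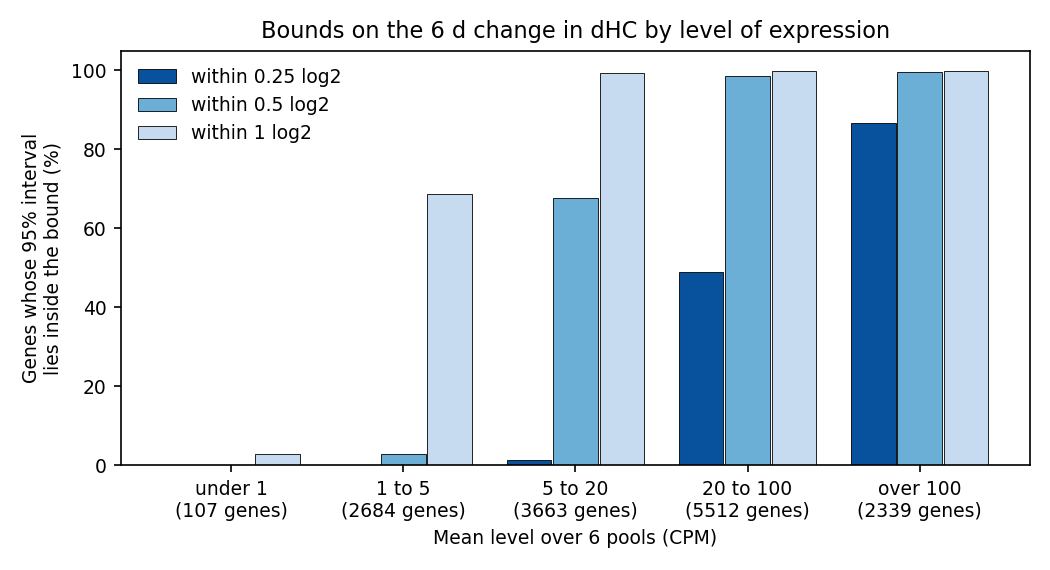
Percent of genes whose 95% interval for the 6 d change lies within 0.25, 0.5 or 1 log2 in both directions (bars, from 0), by mean level over the 6 pools (CPM). The share within 0.5 rises from 2.87% at 1 to 5 CPM to 99.6% over 100 CPM.

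The genes called at 1 h were followed to 6 d. The same fit called 33 genes at 1 h against naive (0.231% of those tested), 32 higher and 1 lower, the latter ENSRNOG00000019358. Both comparisons use the same naive pools, so their changes are not independent and are given side by side, with no count of genes that differ in both. The 32 higher genes had a median log2 fold change of 0.51 at 1 h and 0.08 at 6 d, with 6 d values from −0.32 to 0.51. The 6 d interval lay within 0.5 in both directions for 27 of the 32 and within 1 for 31. Of all genes tested, 72.2% lay within 0.5 and 93.3% within 1, and at 20 to 100 CPM 98.6% lay within 0.5. The counts within a margin rest on the shared naive pools as well. The bounds among the 32 genes reached from −1.32 to 0.97. ENSRNOG00000019358, the gene called lower at 1 h, lay within neither margin at 6 d. The median level of the 32 higher genes was 48.3 CPM, above the 24.5 CPM of all genes tested.

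The second feature of this comparison was that the 6 d pools differed more among themselves than the naive pools did. The root mean square distance between pools, taken over log2 CPM of all tested genes, was 0.321 to 0.335 for the 3 pairs of 6 d pools, 0.285 to 0.304 for the naive pairs and 0.280 to 0.284 for the 1 h pairs. Every 6 d pair was farther apart than every naive or 1 h pair. The 6 d pools were also farther from each other (mean 0.329) than from the naive pools (mean 0.309, range 0.287 to 0.334). Per pool, the mean distance to its own group was 0.328, 0.326 and 0.333 at 6 d and 0.293, 0.302 and 0.295 in naive pools, without overlap. The values of a group are averages of the same 3 pair distances, so they are not independent. An exact permutation of these 6 values (two-sided) gave p = 0.1, the smallest possible. It did not recompute the distances for the permuted groups, so this p does not test the difference in spread. Of the total sum of squares over the 6 pools, 44.8% lay within the 6 d group, 36.4% within the naive group and 18.8% between the group means. Means of 3 pools also differ through the spread of the pools alone. The share between them therefore does not measure an effect of training.

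**Figure D4:**
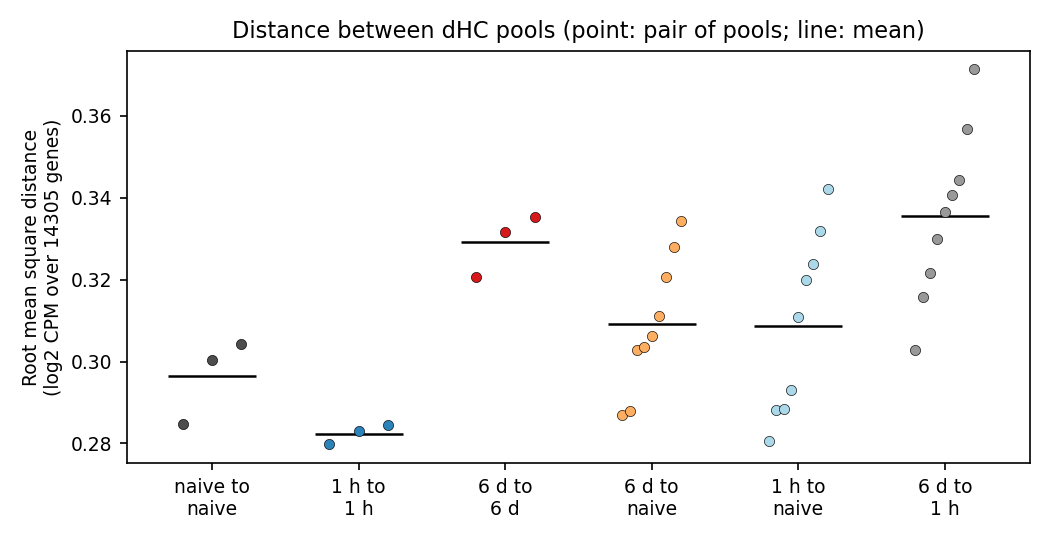
Root mean square distance in log2 CPM between pairs of dHC pools, within and between groups (point: a pair; line: mean; the axis does not start at 0). The 3 pairs of 6 d pools (0.321 to 0.335) lie above all naive pairs (0.285 to 0.304) and all 1 h pairs (0.280 to 0.284).

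Gene by gene the difference in spread was moderate and wide in extent. The median SD of log2 CPM over 3 pools was 0.13 at 6 d, 0.11 in naive and 0.10 in 1 h pools, a ratio of 1.17 between 6 d and naive. The SD was larger at 6 d than in naive pools for 58.7% of the genes. This share was 53.9% at 1 to 5 CPM, 58.0% at 5 to 20 CPM, 59.0% at 20 to 100 CPM and 65.0% over 100 CPM, so it was highest where counting error is smallest. The biological coefficient of variation, edgeR's common estimate of variation beyond counting error, was 7.89% at 6 d, 5.81% in naive and 4.49% in 1 h pools. Chi-square statistics per degree of freedom between pools of a group ran from 3.55 to 4.38 at 6 d and from 2.73 to 2.88 in naive pools, where 1 would be counting error alone. The excess did not rest on a single pool: with 1 pool left out of each group, the ratio of the median SD ran from 1.14 to 1.22 and the ratio of the coefficient of variation from 1.28 to 1.48 over 9 combinations.

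Large spread was more frequent at 6 d. Of 11507 genes with a mean of at least 5 CPM over the 9 dHC pools, 85 had an SD over 0.5 at 6 d, 24 in naive and 15 in 1 h pools, and 6 genes exceeded 0.5 in both the 6 d and the naive pools. The 99th percentile of the SD was 0.47 at 6 d and 0.39 in naive pools. The 85 genes had a median level of 7.67 CPM, against 36.0 CPM for all 11507, so they lay mostly at the lower end of the levels considered. At 1 h, 22.4% of them were over 2-fold higher in dHC than in PL and 9.41% over 2-fold higher in PL, against 5.53% and 3.09% of all 11507 genes. These shares are a description, and the difference was not tested. An unadjusted p under 0.05 for the 6 d change was found in 9 of the 85 and in 674 of the 11507 genes.

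ENSRNOG00000016275 had the largest variance of all these genes over the 3 groups. It was chosen after its values were seen. It stood at 40.6, 342 and 26.2 CPM in naive pools, at 0.112, 12.6 and 53.7 CPM in 1 h pools and at 95.6, 262 and 70.2 CPM in 6 d pools. The groups overlapped, and pool 2 was the highest in both the naive and the 6 d group. Its log2 fold change at 6 d was 0.11 with a 95% interval from −1.29 to 1.497 (edgeR adjusted p = 0.993), and its sign turned when naive pool 1 or 3 or 6 d pool 2 was left out (−0.34, −0.40 and −0.68). In PL it was at 36.0 CPM in naive pool 2 and at 0 to 0.783 CPM in the other naive and 6 d pools. For this gene the pools of one group differed by more than the groups did.

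The pools at 6 d did not stand apart to the same extent. A pool was counted as apart in a gene when it lay over 1.5-fold above or below both other pools of its group, among the 11507 genes. At 6 d this held for 43 genes in pool 1, 55 in pool 2 and 121 in pool 3, against 29 to 39 per naive pool and 18 to 31 per 1 h pool. In 6 d pool 3, 91 of the 121 genes were lower than in the other pools. The counts at 2-fold were 2, 5 and 8 in 6 d pools 1 to 3 and 2 to 3 per naive pool, so that most of these deviations were below 2-fold. Pool 3 at 6 d held 8115751 gene counts, between those of the other 6 d pools. It had the fewest genes detected of the 6 pools compared (17823), and the part of this in the result was not tested.

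These 91 genes were chosen by differences among the 6 d pools. Values of the other groups entered only through the filter on low counts and the minimum mean of 5 CPM over the dHC pools. Naive pool 3 was the lowest of the naive pools in 69 of them, where it was the lowest in 3831 of all 11507 genes. In the 1 h group, pool 3 was the lowest in 50 of the 91, against 3859 of all 11507 genes. Their median deviation from the mean of the own group was −0.52 log2 in 6 d pool 3, −0.18 in naive pool 3 and −0.10 in 1 h pool 3, while pool 2 deviated by 0.28, 0.14 and 0.11. The values in 6 d pool 3 follow from the choice of the genes. In the naive and 1 h groups, whose differences between pools the choice did not use, pool 3 was low and pool 2 was high. The other sets chosen in the same way were smaller and less uniform. Of the 25 genes low in 6 d pool 1, naive pool 1 was lowest in 9, and of the 32 genes low in 6 d pool 2, naive pool 2 was lowest in 16. The same-numbered naive pool was highest in 5 of 18, 9 of 23 and 10 of 30 genes high in 6 d pools 1 to 3. Over all 11507 genes, naive pools 1 and 2 were lowest in 3865 and 3811. Naive pools 1 to 3 were highest in 3677, 4008 and 3822 of them. Apart from the genes low in 6 d pool 2, these smaller sets were near the shares of all genes. The share of reads outside genes was lowest in pool 3 and highest in pool 2 in the naive (10.1% and 12.4%) and the 6 d group (10.1% and 11.8%), but not at 1 h, where pool 3 had the highest (11.6%). Its part in the ranking was not tested. The submitters' labels give the pools a number within each group and say nothing of a shared day, litter or handling, so the source of this common ranking was not tested. The 91 genes had a median level of 11.4 CPM, 14.3% were over 2-fold higher in dHC than in PL, and 2 of them had an unadjusted p under 0.05 for the change at 6 d, against 674 of the 11507.

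**Figure D5:**
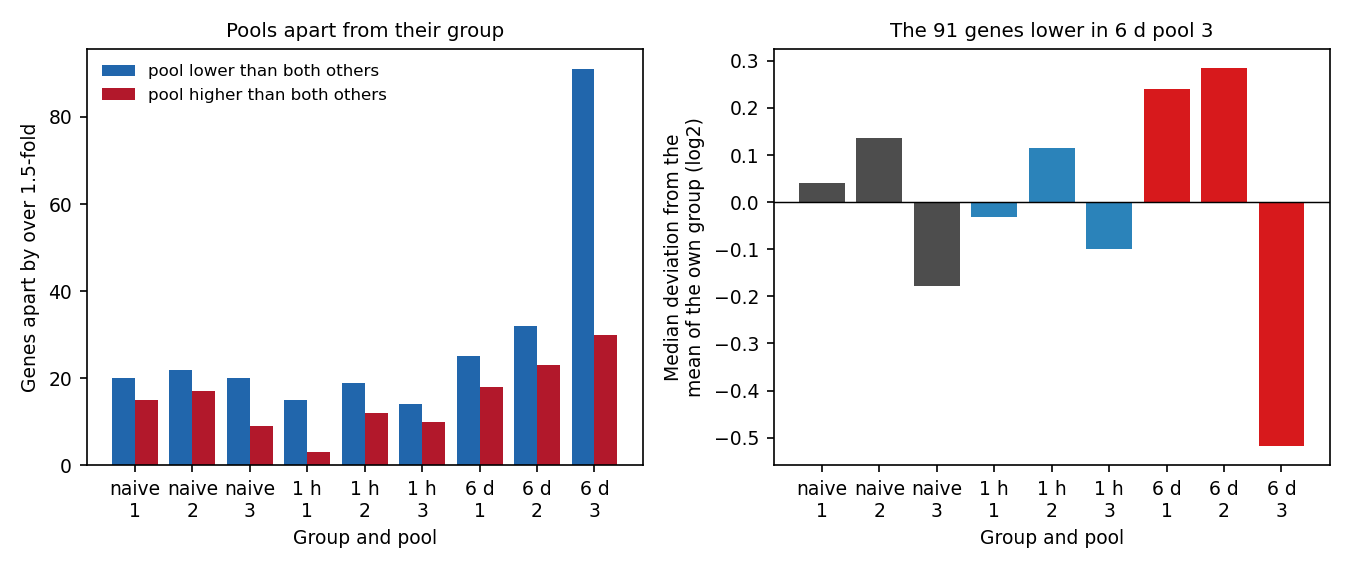
Left, number of genes (of 11507) in which a pool lies over 1.5-fold below (blue) or above (red) both other pools of its group; 6 d pool 3 has 91 below and 30 above. Right, median deviation (log2) of those 91 genes from the mean of the own group in each dHC pool: −0.52 in 6 d pool 3, −0.18 in naive pool 3 and −0.10 in 1 h pool 3.

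A principal component analysis was run on the 9 dHC pools. The first component held 23.1% of the variance. The 6 d pools lay at 8.06, 21.3 and 0.691 on it, the naive pools at 1.25, 14.2 and −5.33 and the 1 h pools at −16.8, −9.60 and −13.7. The 6 d and naive pools overlapped, and the 1 h pools lay apart from both. The second component (14.9%) spread the 6 d pools from −20.0 (pool 3) to 16.8 (pool 1), with the naive pools between −2.90 and 4.92 and the 1 h pools between −5.69 and 8.42. The 6 d pools were the most spread on the second component, while on the first they and the naive pools had similar ranges. No axis of the first 2 separated 6 d from naive pools.

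The number of genes with low p-values moved with the pools used. Leaving out 6 d pool 1 or 3 raised the genes with an unadjusted p under 0.05 from 807 to 1109 and 1171 (edgeR). Without 6 d pool 2 there were 652. Leaving out naive pool 1 or 3 lowered the number to 575 and 659, while leaving out naive pool 2 raised it to 1021. Both directions thus occurred in both groups. A fit that gives each group its own weight (limma voom) left 670 such genes and called 0. Leaving out a pool gave 1 call in 2 of 9 cases, ENSRNOG00000019358 without 6 d pool 1 and ENSRNOG00000040287 without naive pool 2.

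No gene was shown to change differently in dHC and PL at 6 d. The test of the difference between the regions (dHC change minus PL change, all 18 libraries) called 0 of 14784 genes (0%), with 557 at an unadjusted p under 0.05 (3.77%, edgeR). The precision of this difference was lower, with a median half-width of 0.33 and 54.9% of the intervals within 0.5. ENSRNOG00000053122 had a log2 fold change of 0.08 in PL (SE 0.08), a difference of 0.21 (SE 0.10, edgeR adjusted p = 1.00). For ENSRNOG00000026691 the PL change was −0.05 (SE 0.13) and the difference −0.45 (SE 0.17, edgeR adjusted p = 1.00). For ENSRNOG00000019358 they were −0.12 (SE 0.32) and −0.90 (SE 0.52, edgeR adjusted p = 1.00). For ENSRNOG00000040287, with few counts in PL, the difference was 1.70 (SE 0.67, edgeR adjusted p = 1.00). None of the 4 passed the test, and their standard errors leave room for a difference between the regions.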

How the data were processed

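Each library came with a deposited table of raw read counts by Ensembl gene ID. Per the labels' protocols, stranded polyadenylated RNA libraries were made from pooled RNA and read in pairs. Per the submitters' processing notes, the rat build Rnor_6.0 and the tools DESeq2, Picard 1.126 and bedtools 2.17.0 were used, in roles they leave unstated. Which aligner, counter, annotation release and strand setting made the counts is not given in the sources used here, so genes that overlap others or have near-identical copies are uncertain.

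Rows for unassigned reads entered neither the library sizes nor any test. In the 6 pools compared, 44.3% to 51.8% of reads were not aligned, 5.56% to 6.51% were not unique, 10.1% to 12.4% fell outside genes and 0.631% to 0.706% were ambiguous. Counting errors and floors cover counting only, since PCR copies were not told apart.

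Tests used R 4.3.3 and edgeR 4.0.16 (glmQLFit with legacy = FALSE, glmQLFTest, two-sided) on the 9 dHC libraries, with TMM factors, filterByExpr and Benjamini-Hochberg adjustment. Standard errors came from the fitted weights and the moderated quasi-dispersion. Equivalence was tested with a pair of one-sided tests per gene, taking the larger p. Spread was measured on log2 CPM with a prior count of 2. Alternatives used DESeq2 1.42.0 and limma 3.58.1. The tests and intervals were also run on simulated counts in which each gene had the same dispersion in every group. They were therefore not checked under the unequal spread of these pools. The labels describe the pools as independent, and p-values measure the spread between pools.

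The comparison, gene lists and panel were chosen with earlier results of these data known. As no ID was matched to a name, 35 gene lists (18 of cell type markers) and a panel of 24 genes were not tested. The rule for named genes was therefore limited to 2 IDs that were higher and 2 that were lower: those with the lowest p among genes with separate pools and at least 1 CPM, and, as the second lower one, a gene among the 6 with the largest SD at 6 d, chosen after its values were seen.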

Additional observations from a re-analysis of the deposited data

How the results depend on the processing

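The count of 0 genes called at 6 d became 1 without a filter on low counts (ENSRNOG00000040287) and 31 without a filter under edgeR's legacy quasi-likelihood, chosen after seeing the data. Leaving out 1 pool gave 0 to 1 calls. Settings that kept 0 were other size factors, only the 6 pools, all 18 libraries, group weights, the no-feature covariate, a robust or legacy fit, limma voom and DESeq2, the last with 428 instead of 807 genes at an unadjusted p under 0.05. Without a filter, the genes equivalent within 0.5 and 1 fell to 49.1% and 63.5% (legacy fit 49.7% and 63.4%), as more low-count genes were tested. With the replicate number as a block, 3 genes were called (1042 at an unadjusted p under 0.05), ENSRNOG00000040287 among them (log2 fold change 1.09, edgeR adjusted p = 0.0146), and 0 differed from PL. Deviations of naive and 6 d pools with the same number correlated at 0.06, 0.23 and 0.17 over genes, each pool best with its own number, a hint from the data and not the design. With 1 pool left out of 1 group, the ratio of the median SD (6 d over naive) ran from 0.952 to 1.48 and the share of genes with the larger SD at 6 d from 48.4% to 65.0%. Both fell below 1 and 50% when any 6 d pool was left out, since an SD over 2 pools has the lower median by construction. With 2 pools in each group the ratio was 1.14 to 1.22 and the share 54.4% to 55.8%. Genes with an unadjusted p under 0.05 for the difference from PL ran from 405 to 1123 (without PL 6 d pool 1). The log2 fold change of ENSRNOG00000016275 ran from −0.68 to 2.10 with a pool left out. Intervals were widest under 5 CPM, and depth was not varied.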
